A study of Mus musculus with 8 samples.

Results

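The genes described here are 200 mouse gene models whose symbols consist of Gm37 or Gm38 and 3 more digits. These symbols are placeholders for predicted genes that carry no name of their own. Of the 55213 symbols in the count tables, 1386 had this form and 793 had at least 1 count in the 8 libraries. The 200 were selected on their raw counts summed over the 8 libraries, highest first, and this symbol form was picked with earlier results of these data known. They held 238539 counts, which were 93.2% of all counts on symbols of this form. At the edge of the selection, Gm37978 and Gm37262 had summed counts of 126 and 125 and were kept, while Gm37289 and Gm37827 had 124 each and were left out. All 200 passed the filter of 10 counts over the libraries.

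The study asked whether a high-fat diet changes retinal transcripts in mice without a gut microbiome. Each of the 8 libraries held RNA of a whole retina from a separate germ-free (GF) male C57B1/6 mouse aged 15 weeks. The 4 GF-HFD mice (numbers 13, 15, 16 and 19) had eaten a high-fat diet (HFD) with 23% saturated fat for 8 weeks, and the 4 GF-ND mice (numbers 9, 10, 11 and 12) a normal diet (ND) over the same time. No mouse with a gut microbiome was among them. The libraries had 39258006 to 44357518 counts. Transcripts of 7 retinal bipolar cell markers, detected 7 of 7, summed to 1492 to 1632 CPM (counts per 1000000 of the scaled library total) in GF-HFD retinas, and 1510.0 to 1567 CPM in GF-ND retinas. The sum over 11 rod photoreceptor markers was 33473, 41930, 33935 and 32506 CPM in GF-HFD mice 13, 15, 16 and 19, against 32136, 31638, 19848 and 28935 CPM in GF-ND mice 9, 10, 11 and 12. The groups did not overlap, and 11 of 11 were fitted higher with a median log2 fold change of 0.31. An unadjusted p under 0.05 by edgeR was reached by 1, and 2.85% of all genes tested were higher at that p. GF-ND mouse 11 stood apart. The 9 lens markers, detected 9 of 9, took 1.03% of all counts in GF-HFD mouse 19, 5.40% in GF-ND mouse 11 and 0.0153 to 0.147% in the other 6 libraries. Summed levels of the lens list ranged over 189 to 10405 CPM under HFD and 148 to 56657 CPM under ND. Counts over all genes are therefore given with and without mouse 11, and the part of lens tissue in the results was not tested.

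Most genes are read into a long primary transcript whose introns are cut out and degraded in the nucleus. Short stretches of intron that left a cDNA in sequence collections were annotated as single-exon models of their own, many in the class TEC, which is kept for models that still need experimental proof. Reads on such a model can therefore belong to a separate RNA, to the unspliced transcript around it or to an intron that stays in a mature RNA, and gene counts do not separate them.

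The annotation fitted the name of unproven models for most of the 200. GENCODE vM21 on GRCm38 listed 198 of them by symbol, and 155 were of class TEC. The rest were 16 antisense genes, 14 lincRNAs, 7 pseudogenes, 3 sense-intronic RNAs and 3 genes classed as protein-coding. A single exon made up 174 of the 198. A whole model lay inside 1 intron of another gene in 115 cases, of which 94 ran on the strand of that gene and 21 on the opposite one. A further 18 lay inside a gene but overlapped one of its exons, 18 overlapped a gene in part, and 47 lay between genes. Positions were uneven, with 88 models on chromosome 1, 30 on chromosome 9 and 25 on chromosome 3. Their exonic length had a median of 2475.5 bases, and the range was 132 to 16543. The strand setting of the counting is not given in the sources used here, so counts on a model that overlaps another gene are uncertain.

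The annotated ends of the models are shown as a description, since gene counts do not hold the positions of reads. The last 100 bases of 8 models are printed from the GENCODE vM21 transcripts on GRCm38, with the polyadenylation hexamers AATAAA and ATTAAA in capitals. The first is the most abundant model, and the other 7 are those that passed the study's thresholds below.
Gm37583, chr4:136641969-136642068, + strand: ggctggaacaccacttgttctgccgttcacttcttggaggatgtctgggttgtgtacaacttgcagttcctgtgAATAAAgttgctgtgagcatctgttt
Gm38104, chr1:176751521-176751620, - strand: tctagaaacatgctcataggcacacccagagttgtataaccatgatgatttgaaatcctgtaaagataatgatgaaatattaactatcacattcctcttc
Gm37422, chr1:189884553-189884652, + strand: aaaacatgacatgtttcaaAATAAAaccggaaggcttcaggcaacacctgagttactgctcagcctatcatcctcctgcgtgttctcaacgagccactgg
Gm37694, chr16:77687310-77687409, + strand: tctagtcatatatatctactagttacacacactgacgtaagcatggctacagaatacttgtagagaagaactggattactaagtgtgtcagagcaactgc
Gm38091, chr9:89259525-89259624, - strand: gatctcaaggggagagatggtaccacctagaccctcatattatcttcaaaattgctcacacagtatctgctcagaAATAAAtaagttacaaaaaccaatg
Gm38340, chr7:36725754-36725853, + strand: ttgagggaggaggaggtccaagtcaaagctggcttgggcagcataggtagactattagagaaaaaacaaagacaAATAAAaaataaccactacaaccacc
Gm38336, chr1:34809360-34809459, - strand: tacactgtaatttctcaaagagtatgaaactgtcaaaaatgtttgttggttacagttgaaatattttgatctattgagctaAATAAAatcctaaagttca
Gm37366, chr1:195044580-195044679, + strand: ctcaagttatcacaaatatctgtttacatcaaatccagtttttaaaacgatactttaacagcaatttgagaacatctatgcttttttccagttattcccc
The hexamer begins 26 bases before the end of Gm37583 and Gm38340, 25 before that of Gm38091 and 19 before that of Gm38336. In Gm37422 it lies 81 bases before the end, and the last 100 bases of Gm38104, Gm37694 and Gm37366 hold none. Among all 155 models of class TEC, 30.3% had AATAAA or ATTAAA within their last 50 bases on the sense strand. The share was 20.3% over 690 other TEC transcripts of the same symbol form, 31.4% over 2451 remaining TEC transcripts and 50.2% over 58797 protein-coding transcripts.

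Runs of A inside a transcript are shown as well, since oligo-dT can bind to them. A run of 10 or more A was found in 21.3% of the 155 TEC models, against 18.7% of the remaining TEC transcripts and 9.27% of the protein-coding ones. A run of at least 10 T was found in 40.6% of the models, 22.9% of the remaining TEC transcripts and 10.7% of the protein-coding ones. The median length was 2581 bases for the models and 1931 for the remaining TEC transcripts, and longer sequences have more room for such runs. These shares describe letters and do not show where a transcript ended or was primed. The runs of 3 models that passed the thresholds are printed with their surroundings, the run in capitals.
Gm37694, chr16:77685277-77685353, + strand: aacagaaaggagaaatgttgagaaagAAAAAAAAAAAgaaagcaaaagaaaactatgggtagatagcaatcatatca
Gm38091, chr9:89260533-89260623, - strand: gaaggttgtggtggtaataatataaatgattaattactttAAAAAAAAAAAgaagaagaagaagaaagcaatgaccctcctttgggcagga
Gm37366, chr1:195043648-195043737, + strand: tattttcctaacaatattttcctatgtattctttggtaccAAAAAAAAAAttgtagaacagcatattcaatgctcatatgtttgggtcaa

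Transcript levels were low and uneven across the 200. The median summed count was 335, 48 models had over 1000, and 87 averaged under 1 CPM in both groups. Gm37583, Gm37494 and Gm38393 held 42.1% of all counts on the 200, and the first 10 held 55.4%. Per kilobase of exon, the median was 0.576 CPM. Gm37583 reached 65.0 CPM per kilobase, Gm37764 9.29, Gm38393 6.55 and Gm37494 6.26. The intronic models were covered thinly. Per kilobase they had a median of 9.55% of the level of the exons of the gene around them, with quartiles at 2.88% and 19.2%.

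The summed level of the 200 was 722, 608, 599 and 615 CPM in GF-HFD mice 13, 15, 16 and 19, against 796, 891, 608 and 856 CPM in GF-ND mice 9, 10, 11 and 12. All GF-HFD retinas lay below GF-ND mice 9, 10 and 12, whereas GF-ND mouse 11 lay within the GF-HFD range. The means were 636 ± 57.6 CPM under HFD and 788 ± 126 CPM under ND, with SD over 4 mice each here and in all later means. The log2 ratio was -0.31, or -0.41 without mouse 11. The 115 intronic models summed to 200, 153, 123 and 159 CPM in GF-HFD mice, against 228, 238, 140 and 267 CPM in GF-ND mice. Again the groups overlapped through mouse 11. The 88 genes around them that could be tested summed to 11489, 11824, 11035 and 10554 CPM in GF-HFD mice, against 10518, 10331, 9266 and 11492 CPM in GF-ND mice. No sum over the models was tested, since the models were chosen with results known. In bulk retina, fewer cells of a type and less RNA per cell cannot be told apart.

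**Figure D1:**
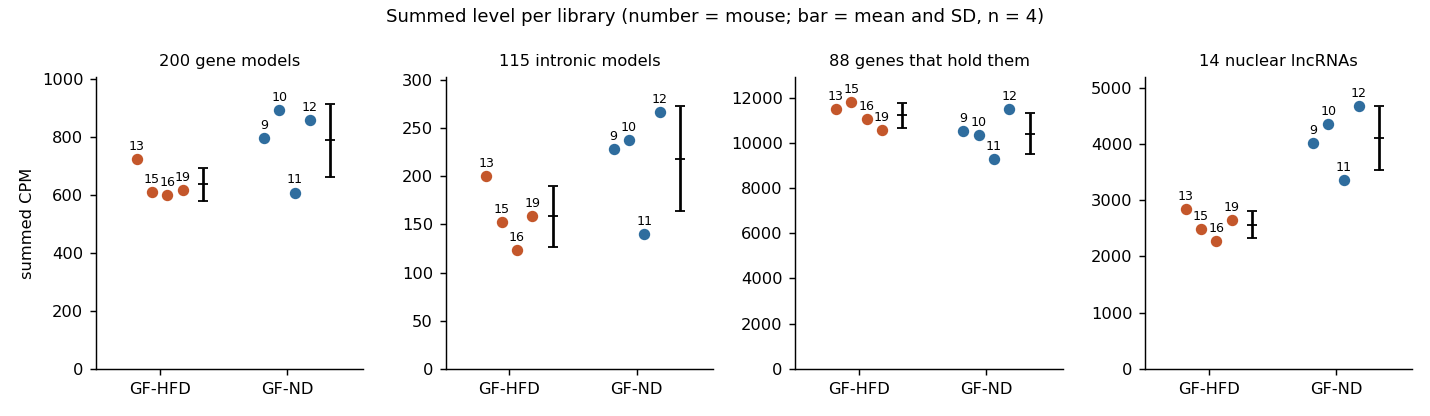
Summed level in CPM (vertical axes, from 0) of the 200 models, the 115 intronic models, the 88 genes that hold them and 14 nuclear long noncoding RNAs, with 1 point per library labelled by mouse, GF-HFD left and GF-ND right, and bars for mean and SD. The models of GF-ND mouse 11 sit at 608 CPM, within the GF-HFD range of 599 to 722 CPM, while the other GF-ND retinas sit at 796 to 891 CPM.

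Most of the models were fitted lower in GF-HFD retinas. The edgeR fit gave 166 of 200 a negative log2 fold change, with a median of -0.42, against 53.7% of all 26900 genes tested and a median of -0.03. Fold changes ran from -1.46 to 0.68, and 77 models were below -0.5 while 2 were above 0.5. At an unadjusted p under 0.05, 34 models were lower and 0 higher, and the background over all genes was 4.53% lower and 2.85% higher. The study's thresholds (p under 0.01, fold change beyond 1 on the log2 scale), applied to the unadjusted p of edgeR, were passed by 7 models in the lower direction and 0 in the higher one (background 0.372% and 0.0855%). After Benjamini-Hochberg adjustment over all genes, edgeR called 0 models and 0 genes in all (0%), with a smallest adjusted p of 0.649. Limma-voom called 0 models and DESeq2 3, all lower (background 0.254% lower and 0.0521% higher), namely Gm38393, Gm38104 and Gm37422, with adjusted p of 0.0313, 0.0314 and 0.0376. The 4 GF-HFD retinas all lay below the 4 GF-ND retinas for 8 models and all above them for 1 (background 2.54% and 2.29%).

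These counts depended on single mice. Without GF-ND mouse 11, 175 of 200 were fitted lower with a median of -0.56, and 69 were lower at an unadjusted p under 0.05 and 0 higher, against a background of 11% and 12.1%. Then 8 models were lower at an adjusted p under 0.05 by edgeR and 0 higher (background 1.37% and 0.232%). In the lower direction, 10 passed the study's thresholds (1.02%), and 54 had groups that did not overlap (11.1%). In the higher direction, 2 had groups that did not overlap, and the share over all genes is not given there. Of 16354 other genes with summed counts in the range of the 200, 2075 lay apart in the higher direction and 2045 in the lower one. The 8 were Gm38102, Gm37090, Gm38020, Gm38104, Gm37639, Gm37226, Gm37422 and Gm37694, with adjusted p of 0.0259 to 0.0497. They are named because of this result, after their values were seen. Leaving out GF-ND mouse 10 gave 13 models lower at an unadjusted p under 0.05 (background 2.97%), and 0 past the study's thresholds (0.167%). The first count was 19 without GF-ND mouse 9 (4.05%), 34 without GF-HFD mouse 13 (3.93%), and 20 without mouse 12 (3.47%), 15 (2.99%), 16 (3.65%) or 19 (3.69%). The second count was 4 without GF-HFD mouse 13 (0.37%), 2 without GF-HFD mouse 15 (0.219%), and 3 without mouse 9 (0.281%), 12 (0.255%), 16 (0.325%) or 19 (0.258%). With mice 11 and 19 both left out, a choice made after the data were seen, the counts were 68 (9.75%) and 11 (0.96%). After adjustment edgeR called 0 models in that fit, and the share over all genes is not given there. Of the 200, 129 were fitted lower in every one of the 8 fits that leave out a mouse and 11 were fitted higher in every one.

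**Figure D2:**
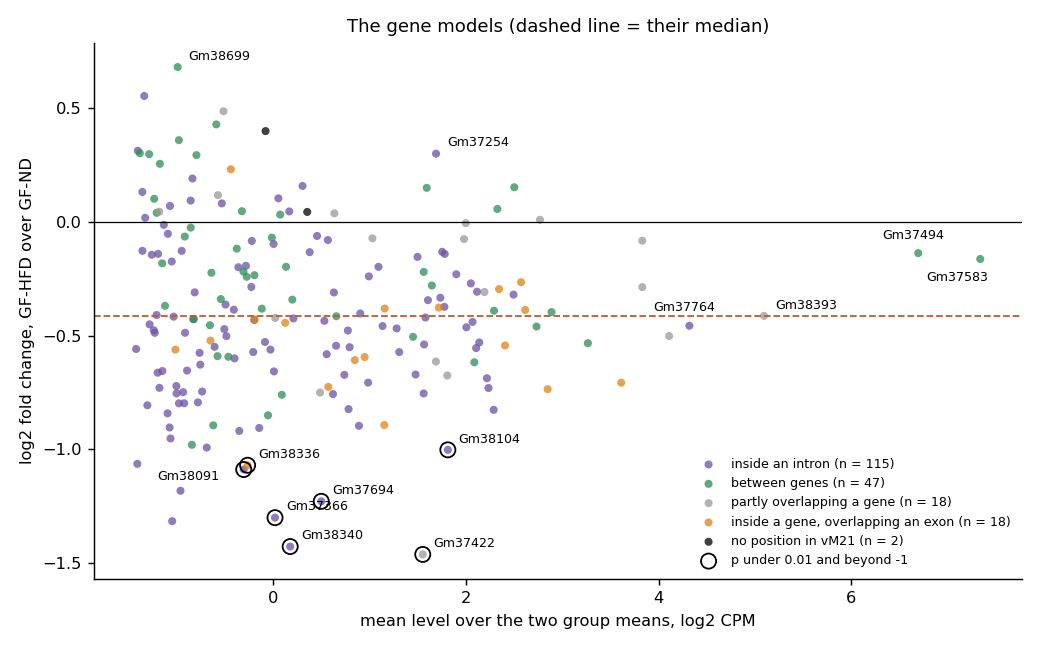
Fitted log2 fold change for HFD against ND (vertical axis) against the mean level in log2 CPM (horizontal axis) for the 200 models, coloured by their place in the annotation, with circles around the 7 that passed the study's thresholds. Most points lie below 0, the dashed line marks their median of -0.42, and Gm37583 and Gm37494, the most abundant, lie nearer to 0 than the circled ones.

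Single libraries stood apart within both groups. Across the 200, the lowest level of a model was in GF-HFD mouse 16 for 70 models and in GF-ND mouse 11 for 43, and the highest was in GF-ND mouse 12 for 62, mouse 10 for 60 and mouse 9 for 40. The median deviation of a library from the mean of each model over the 8 libraries was 0.13, -0.14, -0.43 and -0.08 on the log2 scale in GF-HFD mice 13, 15, 16 and 19, against 0.28, 0.32, -0.30 and 0.47 in GF-ND mice 9, 10, 11 and 12. Mouse 16 on HFD and mouse 11 on ND were thus the low libraries. The list of 8 pigment epithelium and melanocyte markers, detected 8 of 8, summed to 19.3, 149, 659 and 577 CPM in GF-HFD mice and 38.4, 44.0, 901 and 57.1 CPM in GF-ND mice. It was highest in mice 11 and 16. GF-HFD mouse 19 came next at 577 CPM, with a median deviation of the models of only -0.08. The part of these cells in the levels of the models was not tested.

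Models inside a gene were fitted lower more uniformly than those between genes. In introns on the strand of the gene, 84 of 94 were lower with a median log2 fold change of -0.47, and on the opposite strand 19 of 21 with -0.48. Models that overlapped an exon of the gene around them were lower in 17 of 18 cases, with a median of -0.53. Between genes, 33 of 47 were lower with a median of -0.22, and of those overlapping a gene in part 13 of 18 with -0.18. Without mouse 11 these medians were -0.67, -0.56, -0.65, -0.33 and -0.32. The difference between the places was not tested. Of the intronic models, 16 of 115 were lower at an unadjusted p under 0.05 (background 4.53%), and 39 without mouse 11 (background 11%). Of the 7 pseudogenes, 5 were fitted higher with a median of 0.09. Without mouse 11 their median was 0.02, with 3 of 7 lower. None, 0 of 7, had an unadjusted p under 0.05 by edgeR (background 4.53% lower and 2.85% higher). Chromosome 1, which held the most models, had 77 of 88 lower with a median of -0.44, beside 89 of 110 and -0.37 on all other chromosomes.

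**Figure D3:**
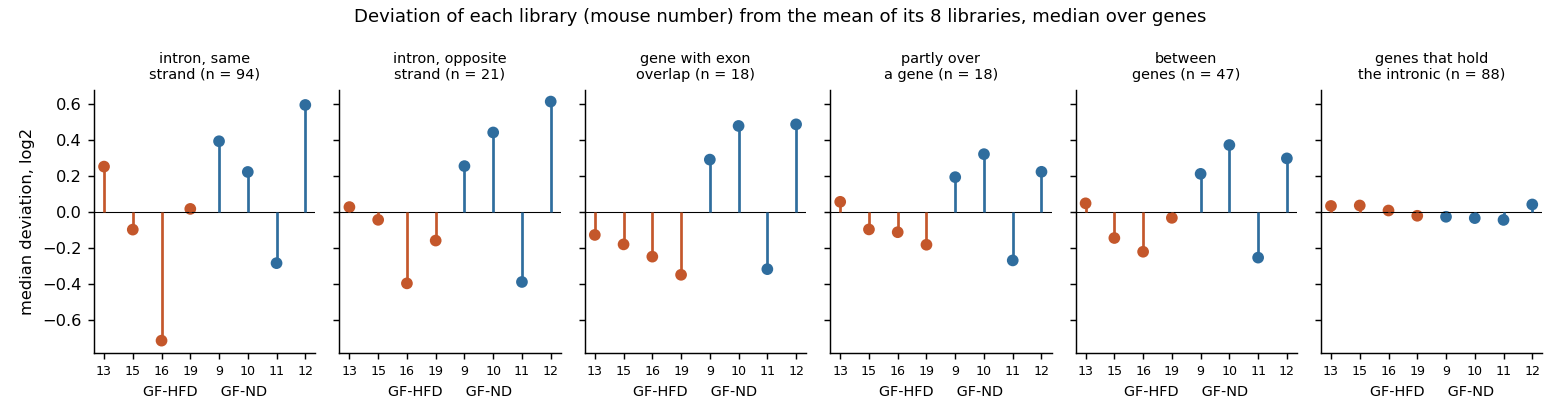
Median deviation of each library from the mean of its gene over the 8 libraries, on the log2 scale (vertical axis), for the models by place and for the 88 genes that hold the intronic ones, with GF-HFD mice left and GF-ND mice right in each panel. The intronic models of GF-HFD mouse 16 reach -0.72 on the same strand, whereas the genes that hold them stay between -0.04 and 0.04 in every library.

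The intronic models were fitted lower while the genes that hold them stayed near 0. The 115 models lay in 89 genes, and 106 of the models were in protein-coding ones. Of the 88 genes tested, 34 were fitted lower with a median of 0.04. At an unadjusted p under 0.05, 5 were lower and 3 higher, close to the background of 4.53% and 2.85%. The level of a model relative to its gene was taken per library as the difference of log2 CPM. It was lower in GF-HFD retinas for 99 of 114 pairs, with a median difference of -0.45, or -0.63 without mouse 11. Per library, the median ratio deviated by 0.18, -0.10, -0.66 and 0.00 in GF-HFD mice 13, 15, 16 and 19, against 0.34, 0.25, -0.22 and 0.51 in GF-ND mice 9, 10, 11 and 12. Here GF-HFD mouse 16 was lowest, and without it the median difference was -0.24. Without both mouse 11 and mouse 19 it was -0.68. The groups did not overlap for 5 pairs, all lower, beside 4.97% of 1329 intronic models of any symbol with their genes. Among the 1215 intronic models outside the selection, the level relative to the gene was lower in GF-HFD retinas for 994. Their median difference was -0.46, or -0.63 without mouse 11. The lower ratio was therefore not particular to the selected models.

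Of the genes that hold models, 20 held 2 or more, and models of the same gene may not be independent of each other. Those on its strand can share its primary transcript, while a model on the opposite strand, such as Gm37755 in Kansl1l, cannot. Ppp2r3a, a regulatory subunit of the phosphatase PP2A, held 4, and all 4 were fitted lower, with log2 fold changes between -0.81 and -0.10, while Ppp2r3a itself was at 0.18 (SE 0.09). Adgrb3, an adhesion receptor of neurons, held 3, all lower at -0.60 to -0.14, and was itself at 0.11 (SE 0.09). Cacnb2, a subunit of voltage-gated calcium channels, held 3 at -0.27 to 0.16, of which 2 were lower, and was itself at 0.15 (SE 0.11). Kansl1l held 3 lower models at -0.47 to -0.23 and was itself at -0.16 (SE 0.12). The noncoding gene Gm4258 held 3 lower models at -0.82 to -0.08 and was itself at -0.42 (SE 0.25). These 5 genes, all that held 3 or more, were chosen for their number of models after the values were seen.

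**Figure D4:**
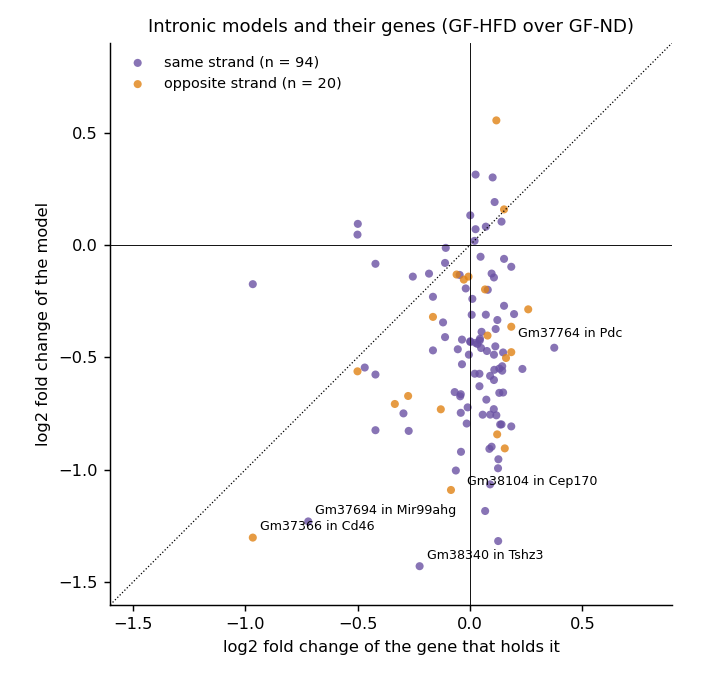
Fitted log2 fold change for HFD against ND of 114 intronic models (vertical axis) against that of the gene around each (horizontal axis), with 94 models on the strand of the gene and 20 on the opposite strand, and a dotted line where both are equal. Most points lie below that line, with the genes near 0 and the models near their median of -0.47.

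The most abundant intronic model was Gm37764, of 2150 bases at chr1:150324538-150326687 in an intron of Pdc on the same strand. Pdc encodes phosducin, a photoreceptor protein that binds the beta and gamma subunits of transducin. Gm37764 had 22.9, 14.8, 15.9 and 13.8 CPM in GF-HFD mice, against 21.8, 25.9, 14.9 and 29.8 CPM in GF-ND mice, in the order of mice used above. The groups overlapped, and its log2 fold change was -0.46 (SE 0.22, exact permutation p = 0.171), or -0.61 without mouse 11. Pdc itself was at 2984, 3240, 2750 and 2569 CPM in GF-HFD mice, against 2377, 2089, 1634 and 2802 CPM in GF-ND mice, with a log2 fold change of 0.37 (SE 0.16). Model and gene thus had fitted changes of opposite sign. The 11 rod markers, like Pdc expressed in photoreceptors, were also fitted higher (median 0.31, and 0.21 without mouse 11 with 10 of 11 higher), and the part of this in the ratio of Gm37764 to Pdc was not tested. Relative to Pdc, Gm37764 was lower by a log2 difference of -0.84 with no overlap between the groups, and the two-sided exact permutation test gave its smallest possible p of 0.029. Per kilobase Gm37764 was at 1.22% of the exons of Pdc.

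Of the 7 models past the study's thresholds in the edgeR fit, Gm38104 had the smallest p there. It spans 1895 bases at chr1:176751521-176753415 in an intron of Cep170, a centrosome protein, on the same strand. Gm38104 had 2.51, 2.30, 1.65 and 2.91 CPM in GF-HFD mice, against 5.64, 5.69, 3.34 and 4.11 CPM in GF-ND mice. Every GF-HFD retina lay below every GF-ND retina, and the log2 fold change was -1.0 (SE 0.25, exact permutation p = 0.029). Without mouse 11 it was -1.13, with an adjusted p of 0.0398 by edgeR. Cep170 was at -0.06 (SE 0.08), and per kilobase the model reached 37.4% of the exons of that gene. Relative to Cep170 the groups overlapped, with a log2 difference of -0.92 and an exact permutation p of 0.0571.

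Gm37422 had the lowest fitted log2 fold change of the 200. This antisense model of 4718 bases at chr1:189879935-189884652 overlaps Smyd2, a lysine methyltransferase, on the opposite strand. It had 1.79, 0.997, 1.92 and 1.54 CPM in GF-HFD mice, against 2.92, 8.13, 2.81 and 3.40 CPM in GF-ND mice. The groups did not overlap, and GF-ND mouse 10 lay far above the other GF-ND retinas. The log2 fold change was -1.46 (SE 0.38, exact permutation p = 0.029), and without mouse 11 the adjusted p was 0.0483 by edgeR at a log2 fold change of -1.61. Smyd2 averaged 14 ± 0.76 CPM under HFD and 15.5 ± 3.16 CPM under ND, at -0.15 (SE 0.15).

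Gm37694 lies in an intron of Mir99ahg, a long noncoding RNA that carries a microRNA cluster, at chr16:77685277-77687409 on the same strand. It had 0.692, 0.902, 1.05 and 0.733 CPM in GF-HFD mice, against 1.62, 3.28, 1.33 and 1.72 CPM in GF-ND mice. GF-HFD retinas were all lower, again with GF-ND mouse 10 on top, and the log2 fold change was -1.23 (SE 0.32, exact permutation p = 0.029). Without mouse 11 it was -1.37, with an adjusted p of 0.0497 by edgeR. Mir99ahg was at -0.72 (SE 0.18), and per kilobase Gm37694 reached 219.6% of its exons. Relative to Mir99ahg, Gm37694 differed by -0.42 on the log2 scale, with an exact permutation p of 0.314.

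Gm38091, at chr9:89259525-89263395, runs opposite to Mthfs, an enzyme of folate metabolism, inside one of its introns. It had 0.645, 0.522, 0.595 and 0.307 CPM in GF-HFD mice, against 1.06, 1.23, 0.739 and 1.39 CPM in GF-ND mice. The groups did not overlap, at a log2 fold change of -1.09 (SE 0.32, exact permutation p = 0.029), while Mthfs was at -0.08 (SE 0.25). Gm38340, at chr7:36721846-36725853, lies on the same strand in an intron of Tshz3, a zinc finger transcription factor. It had 0.740, 0.617, 0.595 and 0.496 CPM in GF-HFD mice, against 0.458, 2.09, 1.64 and 2.42 CPM in GF-ND mice. GF-ND mouse 9 was the lowest of the 8 and the other GF-ND retinas the highest, so that the groups overlapped at a log2 fold change of -1.43 (SE 0.44, exact permutation p = 0.143). Tshz3 was at -0.22 (SE 0.21).

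Gm38336, an antisense model at chr1:34809360-34811908, overlaps an exon of Arhgef4, a guanine nucleotide exchange factor. It had 0.621, 0.522, 0.366 and 0.638 CPM in GF-HFD mice, against 1.30, 1.48, 0.619 and 1.12 CPM in GF-ND mice. GF-ND mouse 11 lay within the GF-HFD range, and the log2 fold change was -1.07 (SE 0.34, exact permutation p = 0.0857), or -1.27 without that mouse. Gm37366, at chr1:195042383-195044679, runs opposite to Cd46 inside an intron of that gene, which encodes a membrane regulator of complement. It had 0.716, 0.902, 0.320 and 0.402 CPM in GF-HFD mice, against 1.21, 2.09, 0.810 and 1.67 CPM in GF-ND mice. GF-HFD mouse 15 lay above GF-ND mouse 11, and the log2 fold change was -1.30 (SE 0.41, exact permutation p = 0.0571). Cd46 had 3.53, 3.70, 3.94 and 3.92 CPM in GF-HFD mice, against 6.89, 9.55, 6.24 and 6.82 CPM in GF-ND mice. These groups did not overlap, at a log2 fold change of -0.97 (SE 0.17).

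**Figure D5:**
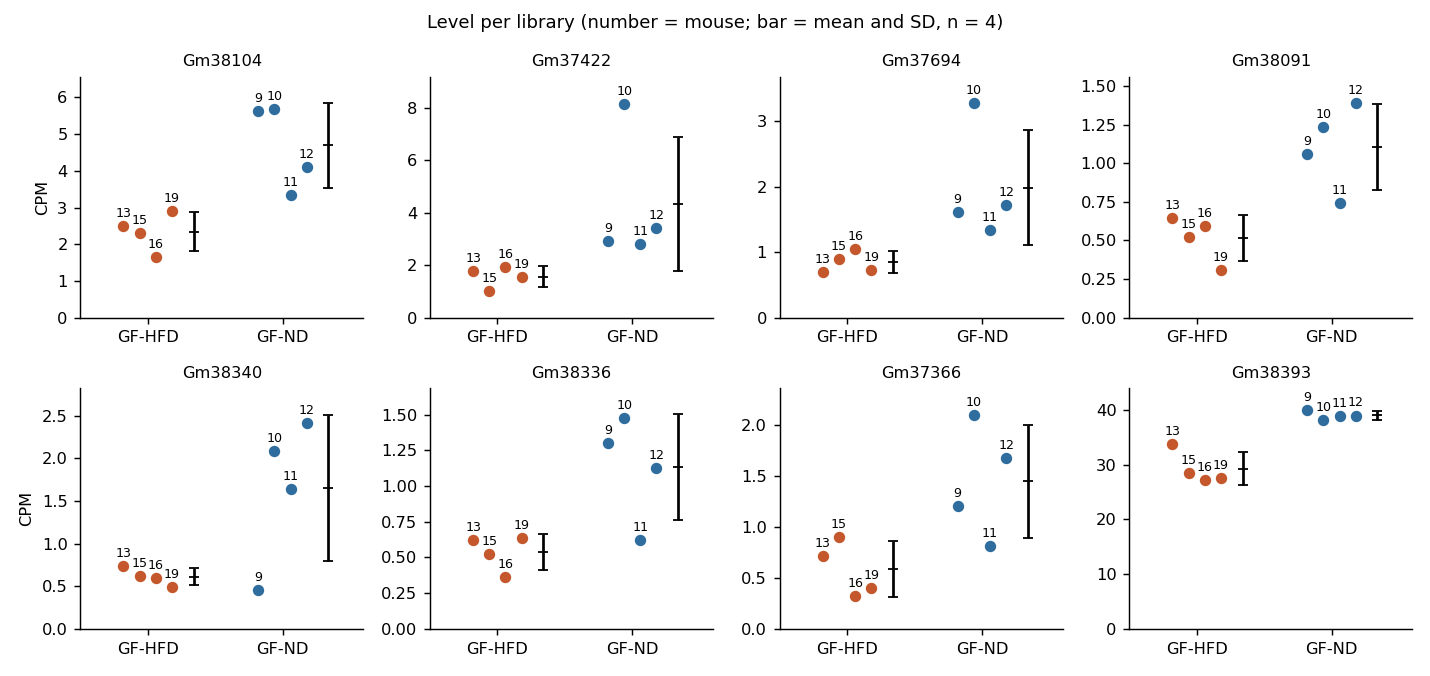
CPM per library (vertical axes, from 0) of the 7 models that passed the study's thresholds and of Gm38393, with GF-HFD left, GF-ND right, points labelled by mouse and bars for mean and SD (n = 4). The groups do not overlap for Gm38104, Gm37422, Gm37694, Gm38091 and Gm38393, and overlap through GF-ND mouse 9 for Gm38340 and through GF-ND mouse 11 for Gm38336 and Gm37366.

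Among the most abundant models, Gm38393 had the smallest p of all 200 in the edgeR fit. It is classed as protein-coding, has 9 exons at chr7:59974149-60005064 and overlaps Snhg14, Snrpn and Snurf, imprinted genes transcribed in neurons, on the same strand. Gm38393 had 33.9, 28.4, 27.3 and 27.7 CPM in GF-HFD mice, against 40, 38.1, 39.0 and 39.0 CPM in GF-ND mice. The spread within each group was small, and GF-HFD retinas were all lower at a log2 fold change of -0.41 (SE 0.09, exact permutation p = 0.029), or -0.41 without mouse 11. Snhg14, a long RNA that hosts small nucleolar RNAs, was at -0.54 (SE 0.09), and Snrpn, which encodes a splicing protein, at 0.04 (SE 0.10). How reads were divided among these overlapping genes was not tested.

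The 2 most abundant models lie between genes and had small fold changes. Gm37583, a TEC model at chr4:136639582-136642068, starts 472 bases after the end of Lactbl1 on the same strand. It had 168, 136, 160.4 and 146 CPM in GF-HFD mice, against 159, 214, 162 and 148 CPM in GF-ND mice. The groups overlapped, at a log2 fold change of -0.16 (SE 0.12, exact permutation p = 0.343), and Lactbl1 was at -0.10 (SE 0.10). Gm37494, a lincRNA of 7 exons at chr7:39544402-39580589, averaged 98.6 ± 2.72 CPM under HFD and 108 ± 11.2 CPM under ND, at -0.14 (SE 0.09, exact permutation p = 0.171). Gm37226, 2416 bases after Mthfsl, averaged 7.87 ± 1.37 CPM under HFD and 11.4 ± 3.52 CPM under ND, at -0.53 (SE 0.24, exact permutation p = 0.200). In GF-ND mouse 11 it was at 6.22 CPM and in the other GF-ND retinas at 12.5 to 14.1 CPM, and without that mouse it was at -0.73 with an adjusted p of 0.0447 by edgeR. Gm37233, a single-exon lincRNA 3406 bases after Ccdc115, averaged 6.40 ± 0.688 CPM under HFD and 8.43 ± 2.12 CPM under ND, at -0.40 (SE 0.20, exact permutation p = 0.171).

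The other abundant models overlap genes, whose values are given beside them. Gm38020 overlaps an exon of Ftx, a noncoding RNA of the X-inactivation centre, and had 10.8, 9.78, 9.41 and 7.16 CPM in GF-HFD mice, against 14.2, 19.7, 10.6 and 16.2 CPM in GF-ND mice. Its log2 fold change was -0.71 (SE 0.20, exact permutation p = 0.0571) and that of Ftx -0.74 (SE 0.21), and the overlap of the groups came from mouse 11. Gm37090, which overlaps the model Gm16008 on the same strand, averaged 14.3 ± 1.03 CPM under HFD and 20.2 ± 6.22 CPM under ND. Its log2 fold change was -0.50 (SE 0.21, exact permutation p = 0.171), beside -0.58 (SE 0.26) for Gm16008. Without mouse 11 the adjusted p of Gm37090 was 0.0328 by edgeR. Gm37305 runs opposite to Ccnl1, a cyclin that acts in splicing, and averaged 12.8 ± 1.54 CPM under HFD and 15.7 ± 1.93 CPM under ND, at -0.29 (SE 0.13, exact permutation p = 0.0857), beside -0.36 (SE 0.16) for Ccnl1. Gm37459 runs opposite to Pex5l, which regulates HCN channels in neurons, and averaged 13.8 ± 1.87 CPM under HFD and 14.6 ± 3.91 CPM under ND, at -0.08 (SE 0.19, exact permutation p = 0.886), beside -0.05 (SE 0.17) for Pex5l. Its value was 0.083 when GF-ND mouse 12 was left out.

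No model was higher at an unadjusted p under 0.05 by edgeR. Closest was Gm37254, a TEC model at chr1:187236457-187240357 in an intron of Gpatch2, with 3.70, 3.85, 3.36 and 3.36 CPM in GF-HFD mice, against 2.43, 3.28, 2.86 and 3.01 CPM in GF-ND mice. Every GF-HFD retina lay above every GF-ND retina, yet the log2 fold change was 0.30 (SE 0.17, exact permutation p = 0.029), and Gpatch2 was at 0.10 (SE 0.08). The pseudogene Gm38699 averaged 0.622 ± 0.185 CPM under HFD and 0.387 ± 0.241 CPM under ND, with a log2 fold change of 0.68 (SE 0.49, exact permutation p = 0.200). The remaining 6 with the smallest p in this direction were Gm38576, Gm37805, Gm37503, Gm37240, Gm37345 and Gm37242, with log2 fold changes between 0.29 and 0.55 and overlapping groups. Gm38576 has no position in vM21. Gm37240 spans 12 exons across several genes, and its counts cannot be assigned to it alone with certainty.

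Other unproven models had fitted fold changes in the same direction. Among 535 other TEC genes with summed counts in the range of the 200, 466 were fitted lower with a median of -0.45. At an unadjusted p under 0.05, 90 of these TEC genes were lower and 1 higher (background 4.53% and 2.85%). Of 13242 protein-coding genes in that range, 5778 were fitted lower, with a median of 0.03. The range runs from 125 to 54209 summed counts, and genes were not matched by abundance within it. The 360 tested models of the same symbol form below rank 200 had 275 lower and a median of -0.57. Summed, they had 51.7, 42.8, 26.3 and 47.2 CPM in GF-HFD mice, against 71.4, 52.6, 44.0 and 77.5 CPM in GF-ND mice. GF-HFD mouse 16 was lowest there as well.

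A list of nuclear long noncoding RNAs and a list of genes known for introns retained in the nucleus were set beside the models. Gene counts on the second list do not separate spliced from unspliced RNA. Of 14 nuclear long noncoding RNAs, 13 were fitted lower with a median of -0.50. At an unadjusted p under 0.05, 7 were lower and 0 higher (background 4.53% and 2.85%). Their sum was 2841, 2496, 2268 and 2640.2 CPM in GF-HFD mice, against 4011, 4354, 3362 and 4684 CPM in GF-ND mice. The groups did not overlap, mouse 11 included. Meg3, an imprinted noncoding RNA of neurons, was at -1.05 (SE 0.27), Snhg11 at -1.0 (SE 0.27) and Ftx at -0.74 (SE 0.21). Malat1, a noncoding RNA of nuclear speckles, had 1558, 1178, 589 and 1445 CPM in GF-HFD mice, against 2055, 941, 1613 and 2515 CPM in GF-ND mice, and was fitted at -0.58 (SE 0.33). Its lowest library, GF-HFD mouse 16, and its highest, GF-ND mouse 12, were also the lowest and highest for the intronic models. GF-ND mice 10 and 11 were ordered differently, with Malat1 at 941 and 1613 CPM and the intronic models at 238 and 140 CPM. Whether Malat1 and the models change together was not tested.

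Of 17 genes known for introns retained in the nucleus, mostly splicing factors and their kinases, 16 were fitted lower with a median of -0.36. At an unadjusted p under 0.05, 8 were lower and 0 higher (background 4.53% and 2.85%). The kinase Clk4 was at -0.53 (SE 0.17), Clk1 at -0.48 (SE 0.18), and Ogt, the enzyme that adds O-GlcNAc to proteins, at -0.45 (SE 0.12). The list summed to 6018, 5420.3, 6170.3 and 5475 CPM in GF-HFD mice, against 6184, 7849.9, 5294 and 7511 CPM in GF-ND mice. Here GF-ND mouse 11 was lowest and the groups overlapped. Both lists were written with earlier results of these data known, and Ftx and Snhg14 share sequence with Gm38020 and Gm38393.

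Median fold changes of models with and without the sequence features shown above were close, and their difference was not tested. The 47 TEC models with AATAAA or ATTAAA in their last 50 bases had a median log2 fold change of -0.42 with 42 lower, and the 108 without had -0.43 with 92 lower. The 33 with a run of A had -0.46 with 28 lower, and the 122 without had -0.42 with 106 lower. The 63 with a run of T had -0.40 with 54 lower, and the 92 without had -0.46 with 80 lower. Single-exon models had a median of -0.42 with 148 of 174 lower, and those of several exons -0.36 with 18 of 24 lower. By abundance, the first 50 of the 200 had 45 lower with a median of -0.38, and 13 were lower at an unadjusted p under 0.05 (background 4.53%). The last 50 had 36 lower with -0.39, and 3 at that p, beside the same background.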

How the data were processed

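Whole-retina RNA of 4 GF-HFD and 4 GF-ND mice was sequenced by the authors as 100-bp read pairs, aligned with STAR 2.4.2 to GRCm38 and counted on GENCODE vM23 with featureCounts of Subread 1.4.6-p1. The authors deposited raw counts per symbol, 1 table per library. Strand and pair settings are not given in the sources used here. Of 122 counts between 1 and 12 on the models, 72.1% were even, and counting error is understated where both reads of a pair were counted.

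Counts were scaled by TMM and tested by quasi-likelihood in edgeR 4.0.16 (R 4.3.3), over genes with at least 10 counts in the 8 libraries, without covariates. Adjusted p-values are Benjamini-Hochberg over all genes tested, and other p-values, from edgeR or permutation, are unadjusted. Log2 CPM used a prior count of 2. CPM used TMM-scaled totals. Log2 fold changes set HFD over ND and have a standard error (SE). Single values were compared by two-sided exact permutation tests over 70 arrangements, which allow no p below 0.029. Positions and sequences came from GENCODE vM21 transcripts (GRCm38).

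Models and lists were chosen with earlier results of these data known. Named are the 10 models with the highest summed count, the 8 with the smallest p in each direction, those past the study's thresholds (p under 0.01, log2 fold change beyond 1), and the genes that hold them. Others are named as chosen after their values were seen, namely models called without mouse 11 or by DESeq2, and genes with several models. Alternatives were RLE factors, library totals, no filter, filterByExpr, DESeq2 1.42.0, limma-voom (limma 3.58.1), halved counts, a prior count of 0.5 and each mouse left out. Scripts were tested on simulated data. 1 gene of the marker lists is not reported here.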

Additional observations from a re-analysis of the deposited data

Results flagged for a closer look

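In 66 groups of 4 libraries checked for a single library far from the rest, 3 stood out, and chance alone gives about 5% of groups. Gm37226 was at 2.65 log2 CPM in GF-ND mouse 11, against 3.65 to 3.82 in the other GF-ND mice. Gm37240 was at -0.49 log2 CPM in GF-HFD mouse 16, against -0.14 to -0.11 in the other GF-HFD mice. The summed level of the 200 models was 722 CPM in GF-HFD mouse 13, against 599 to 615 CPM in the other GF-HFD mice.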

How the results depend on the processing

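Most of the named models did not pass the thresholds of the study (p under 0.01, log2 fold change beyond 1) in the reported fit. Over all named models, 355 of 400 alternative values kept their direction and their side of these thresholds. A further 44, all from the 7 models that passed, no longer passed, and 1 changed sign, namely Gm37459, which ranged from -0.23 to 0.083 with a mouse left out and was positive without GF-ND mouse 12. Of 149 alternative values of the summaries, 130 stayed within 1.5 times of the reported count or within the spread and 19 did not. DESeq2 called 3 models lower after adjustment, and limma-voom put 3 rather than 7 past the study's thresholds. With each mouse left out in turn, models lower at an unadjusted p under 0.05 numbered 13 to 69, those past the study's thresholds 0 to 10, and those lower at an adjusted p under 0.05 0 to 8. Without GF-ND mouse 11 and GF-HFD mouse 19, chosen after seeing the data, the first 2 counts were 68 and 11. The median log2 fold change of the 200 lay between -0.56 and -0.29 with a mouse left out, and the summed log2 ratio between -0.41 and -0.24. No paired analysis was possible because the groups share no replicate numbers. With 87 models under 1 CPM in both groups, depth limits the fold changes of single models.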
